A study of Mus musculus with 8 samples.

Results

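Caspases are the proteases that carry out apoptosis and, in the case of caspase-1, inflammatory signalling, and the apoptosome is the complex in which the adaptor Apaf1 and cytochrome c activate caspase-9. The genes described here are Casp1, Casp2, Casp6, Casp8, Casp9, Apaf1 and Cycs, which encodes the somatic form of cytochrome c. Every probe set that the platform annotation maps to one of these symbols alone was taken, which gave 11 probe sets of 7 genes among 12422 probe sets that are not controls. Casp9 had 4 probe sets, Casp2 had 2, and the other genes had 1 each. Total RNA of mouse double positive thymocytes, immature T cells with CD4 and CD8 on the same cell, was measured on 8 arrays in 4 groups of 2: a control, an overnight control, and arrays titled Valpha2 and Vbeta5, names of variable segments of the alpha and beta chain of the T cell receptor, in a series on engaging this receptor with antibodies. The sources used here give no strain, genotype, age, antibody clone, dose or time, and do not say that the 2 arrays of a group came from separate animals or cultures, so p-values measure the spread between these arrays, which may be technical.

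In the thymus most double positive cells die, either because their receptor receives no survival signal or because it signals too strongly. In the mitochondrial route, cytochrome c leaves the mitochondrion, binds Apaf1 and recruits pro-caspase-9, an initiator. Caspase-9 acts upstream of effector caspases such as caspase-6. In the death receptor route, caspase-8 is recruited through the adaptor Fadd to receptors such as Fas. Caspases are made as inactive precursors and are switched on by assembly and cleavage of the protein, so the level of a transcript is not a measure of protease activity.

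Of the 11 marker genes listed for the labelled cell type 10 had a probe set, and all 10 were bright enough to be tested. None of the 10 was at 0 on any array. That held for every other marker list too, so it does not show presence. The summed signal of the 10 was 45060 and 48970 on the control arrays and 58590 and 57430 on the overnight control arrays. It was 60280 and 48430 with Valpha2, and 30150 and 17720 with Vbeta5. The markers did not move alike. Cd4, Cd8a, Cd8b1, Rag1, Rag2, Dntt and Ptcra were lower on both Vbeta5 arrays than on all others. Cd3e, at 4669.3 and 2670.9 with Vbeta5, and Cd3g, at 3588.6 and 3159.1, lay within the range of the others. Cd1d1, at 588.9 and 749.1 against 594.5 to 1037, lay within or just under it. A measure of RNA quality, the Gapdh 3' over 5' control signal in log2 units, was raised on 3 arrays numbered 1: 0.95 for the overnight control, 1.72 for Valpha2 and 0.48 for Vbeta5. It lay from -0.28 to -0.09 on the remaining 5. Differences were also computed without those 3 arrays, which leaves 1 array in each of these groups. Some of these differences are given below, not always those that moved most. Each compares single arrays, except against the control pair. In bulk RNA of this kind, fewer cells of a type and less RNA per cell cannot be told apart.

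No caspase or apoptosome transcript passed the test in any comparison. Of the 11 probe sets 9, from 6 genes, were brighter than the dimmest 33.3% of probe sets and were tested; the Casp1 probe set and 1 of the 4 for Casp9 were not. For Vbeta5 against the overnight control, which asks what changes when the beta chain is engaged, 0 of 9 passed (limma, Benjamini-Hochberg over 8281 probe sets, threshold 0.05), where 0.616% of all tested probe sets did. For Valpha2 against the overnight control 0 of 9 passed, with a background of 0%. For Vbeta5 against Valpha2 it was 0 of 9 with a background of 0.278%, and for the overnight control against the control 0 of 9 with 0.181%. A moderated F test for any difference among the 4 groups passed 0 of 9, with 1.03% of all probe sets past it and adjusted p-values of the members from 0.732 to 0.982. At an unadjusted p under 0.05 the counts were 0, 0, 0 and 1 of 9 in the order above, against 8.49%, 1.62%, 8.19% and 9% of all tested probe sets. At these backgrounds a set of 9 probe sets would often hold no call, so the count is not a result about these genes in particular.

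The size of difference that the arrays allow is given by the 95% intervals of the limma fit, taken per probe set and not adjusted for the number of probe sets. All differences are on the log2(signal + 17) scale, where 17 is an offset at the 20th percentile of the positive signals, and so understate the change of dim probe sets. In 19 of the 36 pairs of a probe set and a comparison, the interval lay wholly within 1 log2 unit of 0. That was the case for both Casp2 probe sets, Casp6 and Casp8 in all 4 comparisons. It also held for Apaf1 in each comparison except Vbeta5 against Valpha2. The intervals of the 3 tested Casp9 probe sets and of Cycs reached beyond 1 log2 unit in every comparison. The share of all tested probe sets with such a narrow interval was 35.9%, 43.4%, 33.8% and 33.6% for Vbeta5 and Valpha2 against the overnight control, Vbeta5 against Valpha2, and the overnight control against the control.

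**Figure D1:**
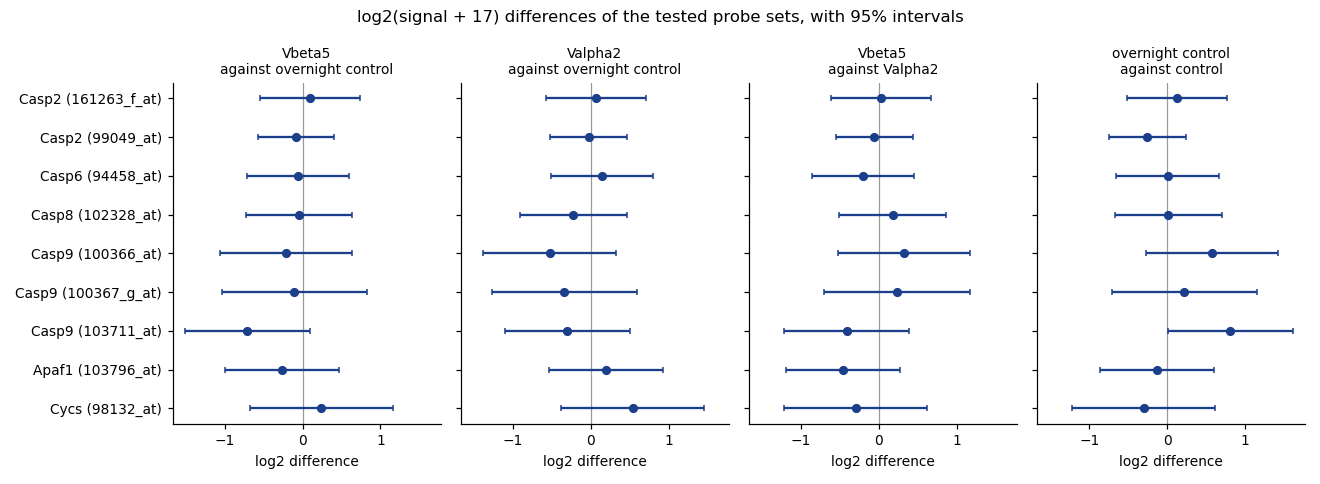
Differences of log2(signal + 17) between groups (horizontal axis, log2 units) for the 9 tested probe sets, 1 panel per comparison; points are limma estimates from 2 arrays a group and bars their 95% intervals. The estimates lie between -0.71 and 0.81, and the 1 interval that does not reach 0 is that of the Casp9 probe set 103711_at in the overnight control against the control.

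The apoptosome genes were examined first. Apaf1, the scaffold of the complex, had signals of 312.4 and 395.6 on control arrays 1 and 2, 245.2 and 414.1 on the overnight control arrays, 377.3 and 360.3 with Valpha2, and 207.3 and 331.4 with Vbeta5. Both Vbeta5 arrays lay below both Valpha2 arrays, but the overnight control arrays spanned nearly the whole range. Apaf1 differed by -0.46 ± 0.33 (SE) between Vbeta5 and Valpha2 (95% interval -1.20 to 0.27, limma adjusted p = 0.813) and by -0.27 ± 0.33 between Vbeta5 and the overnight control (adjusted p = 0.969). The lowest and the second lowest Apaf1 signals were on Vbeta5 array 1 and overnight control array 1, both with a raised 3' to 5' ratio, whereas Valpha2 array 1, with the highest ratio, was not low. Without the 3 arrays of raised ratio the difference between Vbeta5 and Valpha2 was -0.115, and the part of RNA quality in it was not tested.

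Cycs, whose product carries electrons in the respiratory chain and triggers the apoptosome once released, had signals of 86.6 and 155.9 in the control, 77 and 108.9 in the overnight control, 175 and 113.1 with Valpha2, and 94.7 and 130.7 with Vbeta5. The 2 control arrays lay further apart than any 2 group means, and array 1 was the lower of the pair in each group except Valpha2. Both Valpha2 arrays were above both overnight control arrays, with means of 144 ± 43.8 against 92.95 ± 22.6 (SD, n = 2) and a log2 difference of 0.54 ± 0.41 (SE; 95% interval -0.38 to 1.46, limma adjusted p = 1). It was 0.0473 without the 3 arrays of raised 3' to 5' ratio. Cytochrome c has processed pseudogene copies in the mouse genome, so this probe set may report more than the Cycs transcript itself.

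Casp9, the initiator that the apoptosome activates, showed the widest movement of any tested member, and its probe sets did not move together. Probe set 103711_at read 83.9 and 95.9 in the control, 203.6 and 142.5 in the overnight control, 115.7 and 158 with Valpha2, and 106.2 and 89.7 with Vbeta5. The overnight control arrays were above both control and both Vbeta5 arrays, and the Valpha2 arrays overlapped them. The difference of the overnight control from the control was 0.81 ± 0.36 (SE; 95% interval 0.01 to 1.62), a 1.76-fold difference, with an unadjusted p of 0.0474 and a limma adjusted p of 0.55. The difference of Vbeta5 from the overnight control was -0.71 ± 0.36 (95% interval -1.51 to 0.09, limma adjusted p = 0.671), and -0.58 without the 3 arrays of raised 3' to 5' ratio; the 2 comparisons share the overnight control arrays. Neither passed the test.

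Probe set 100366_at, also of Casp9, read 86.3 and 112.2 in the control, 201.3 and 118.7 in the overnight control, 91.2 and 114.4 with Valpha2, and 115 and 151.1 with Vbeta5. Its overnight control arrays again lay above both control arrays, by 0.58 ± 0.38 (SE; limma adjusted p = 0.655), but the Vbeta5 arrays overlapped them. Probe set 100367_g_at, which the annotation ties to the same mRNA record, read 130.9 and 90.8, then 183.6 and 91.3, then 120 and 82.3, then 104.1 and 137.8 in the same order of groups. In that probe set the arrays of all 4 groups overlapped. Overnight control array 1 carried the highest signal in all 3 tested Casp9 probe sets, and its Gapdh 3' to 5' ratio was 0.95. Without the 3 arrays of raised ratio the overnight control differed from the control by 0.58 for 103711_at, 0.23 for 100366_at and -0.22 for 100367_g_at. The part of RNA quality, or of the raised median of that overnight control array, in the Casp9 values was not tested.

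The 4th Casp9 probe set, 100368_at, was too dim to be tested. It read 33.3 and 44.7 in the control, 10 and 34 in the overnight control, 13.7 and 6.9 with Valpha2, and 18.6 and 30 with Vbeta5, with 3 arrays under the offset of 17. On overnight control array 1, where the other Casp9 probe sets were highest, it was the second lowest of the 8. The mean of the 3 tested probe sets gave a Casp9 difference of 0.54 between the overnight control and the control (limma adjusted p = 0.641). Between Vbeta5 and the overnight control it was -0.34 (limma adjusted p = 0.901). Without the 3 arrays of raised 3' to 5' ratio the latter comparison gave 0.309 for 100366_at, 0.515 for 100367_g_at and -0.58 for 103711_at. The sign then differed between the probe sets.

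**Figure D2:**
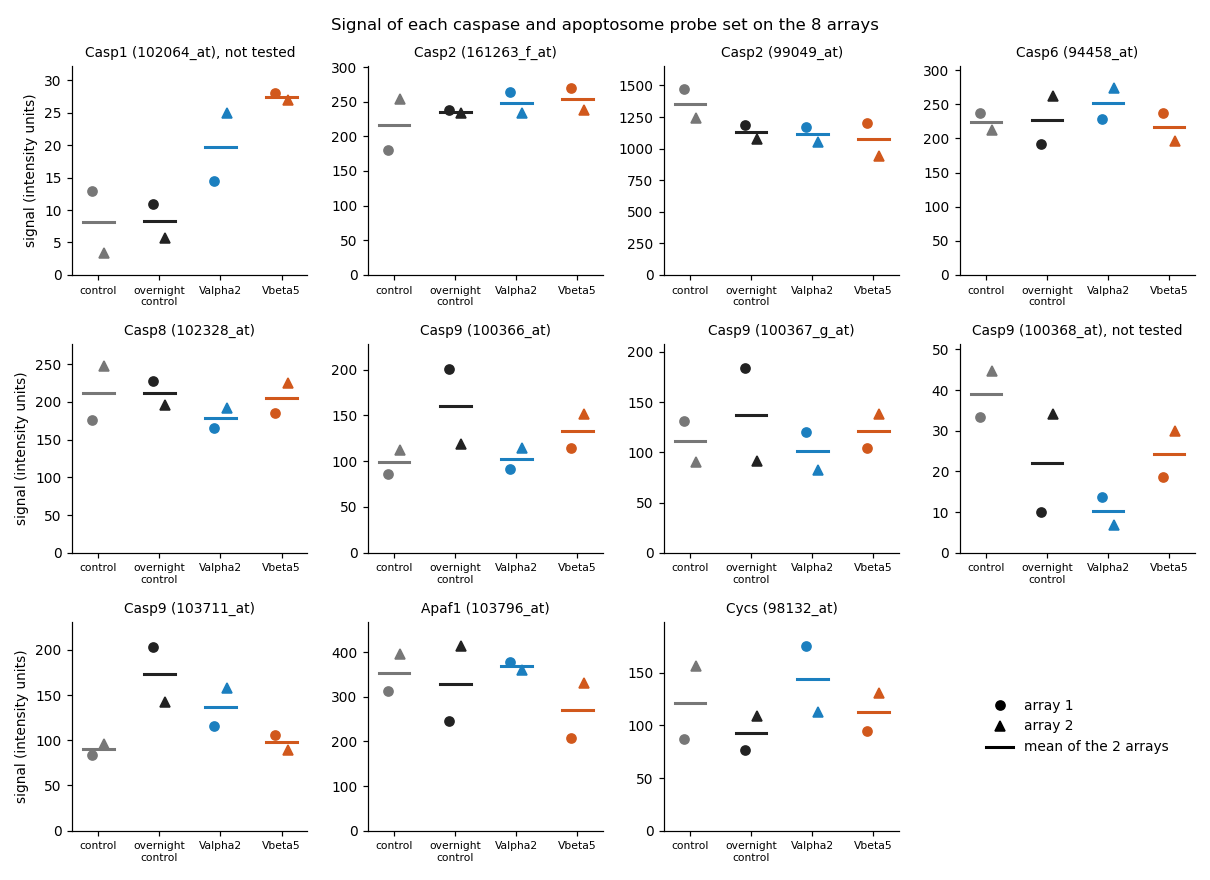
Deposited signal (vertical axis, linear intensity units, from 0) of each of the 11 probe sets in the 4 groups; circles are array 1, triangles array 2 and bars the mean of the 2. Most pairs of arrays overlap between groups; the Casp9 probe set 103711_at is higher on the overnight control arrays (203.6 and 142.5) than on the control and Vbeta5 arrays, and Casp1 stays at or under 28 on every array.

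Casp8, the initiator of the death receptor route, held a narrow range. Its signals were 176 and 247.1 in the control, 227.7 and 195.6 in the overnight control, 165.7 and 191.8 with Valpha2, and 184.6 and 224.8 with Vbeta5. The control arrays spanned nearly the whole range of 165.7 to 247.1. Both Valpha2 arrays were below both overnight control arrays, with a log2 difference of -0.22 ± 0.31 (SE; 95% interval -0.91 to 0.46, limma adjusted p = 1). Vbeta5 differed from the overnight control by -0.05 ± 0.31, with an interval from -0.73 to 0.64. Without the 3 arrays of raised 3' to 5' ratio these Casp8 differences were -0.026 for Valpha2 and 0.186 for Vbeta5.

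Casp2, a conserved initiator-type caspase activated through the adaptor Cradd, gave the narrowest intervals. Its probe set 99049_at read 1474.5 and 1239.4 in the control, 1190.7 and 1076 in the overnight control, 1168.4 and 1055.5 with Valpha2, and 1206 and 942.3 with Vbeta5. Both control arrays lay above the other 6 arrays. The overnight control differed from the control by -0.25 ± 0.22 (SE; 95% interval -0.74 to 0.24, limma adjusted p = 0.732). Vbeta5 differed from the overnight control by -0.09 ± 0.22 (95% interval -0.58 to 0.41), an interval of 0.67-fold to 1.33-fold; without the 3 arrays of raised ratio it was -0.188. The other Casp2 probe set, 161263_f_at, ranged from 180 to 269.3 and had its lowest signal on control array 1. It differed by 0.13 ± 0.29 between the overnight control and the control, the opposite sign to 99049_at, and neither passed.

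Casp6, an effector caspase that cleaves nuclear lamins, varied least between groups. It read 236.6 and 212.1 in the control, 192.2 and 262.9 in the overnight control, 229 and 273.8 with Valpha2, and 237 and 195.6 with Vbeta5. Its highest signal was 1.43 times its lowest over all 8 arrays, and the overnight control arrays alone nearly covered that range. Its largest difference was -0.20 ± 0.30 (SE) for Vbeta5 against Valpha2 (95% interval -0.86 to 0.46, limma adjusted p = 0.932). Without the 3 arrays of raised 3' to 5' ratio that difference was -0.452.

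Casp1, the inflammatory caspase that processes the precursor of interleukin-1 beta, was dim on every array. It read 13 and 3.3 in the control, 11 and 5.7 in the overnight control, 14.5 and 25 with Valpha2, and 28 and 27 with Vbeta5. Both Vbeta5 arrays were above the other 6, and 5 of the 8 signals were under the offset of 17. No detection call was used, so whether signals this low were above background is not known here, and the difference that follows is no measured fold. When all 12422 probe sets were fitted without the filter, Casp1 differed by 0.82 ± 0.36 (SE) between Vbeta5 and the overnight control, with an unadjusted p of 0.0455 and a limma adjusted p of 0.7. That difference depends on the offset: it was 1.11 with an offset of 8.5 and 0.69 with a floor in its place.

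Casp1 is strongly expressed in myeloid cells, so the macrophage and monocyte markers are given beside it. All 12 genes of that list had a probe set and 7 passed the filter on dim signals; none was at 0. Their summed signal was 577 and 668.9 in the control, 1392 and 604.2 in the overnight control, 636.8 and 705 with Valpha2, and 1047 and 1186 with Vbeta5. The Vbeta5 sums were above those of 5 of the other 6 arrays, and overnight control array 1, where Casp1 read 11, had the highest sum of all. That array also had the highest median signal over all probe sets. Single markers differed: Ctss read 98.7 and 244 with Vbeta5 against 25.4 to 112.4 on the other 6 arrays, and C1qb read 195.4 and 143.5 against 41.7 to 332.1. Lyz2, too dim to test, read 8 and 8.4 against 2.4 to 11.6. Fcgr3, also too dim to test, went the other way, with 8.8 and 12.4 against 13.5 to 40.4. The dendritic cell and MHC class II markers summed to 500.1 and 366.8, 797.8 and 278.4, 397 and 337.4, and 736.3 and 867.7 in the same order of groups. The part of such cells in the Casp1 signal was not tested.

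Across the members, the differences between groups were of the size seen over all probe sets or smaller. The median difference of the 9 tested probe sets was -0.09 for Vbeta5 against the overnight control, -0.03 for Valpha2 against it, -0.06 for Vbeta5 against Valpha2 and 0.01 for the overnight control against the control. The medians over all tested probe sets were -0.01, -0.02, 0.02 and 0.10. The median size of the difference, without its sign, was 0.11, 0.22, 0.23 and 0.22 for the members against 0.27, 0.21, 0.29 and 0.33 for all. Groups whose arrays did not overlap were found in 1, 3, 3 and 3 of the 9 probe sets, against 31.1%, 20.8%, 40.4% and 37.9% of all tested.

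The SD of the 4 group means, which includes the spread between arrays, had a median of 0.15 for the members and 0.27 over all tested probe sets, in log2 units. The SD within groups was also smaller, at a median of 0.24 against 0.36. Casp6 had the smallest SD of group means, 0.09, with 95.3% of tested probe sets above it, and the Casp2 probe set 161263_f_at and Casp8 followed with 93% and 92.5% above. The Casp9 probe set 103711_at had the largest, 0.38, with 28.6% of tested probe sets above it. These shares and medians are descriptions, not matched for brightness, with which the fit let the spread vary. The remaining tested probe sets fell between.

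**Figure D3:**
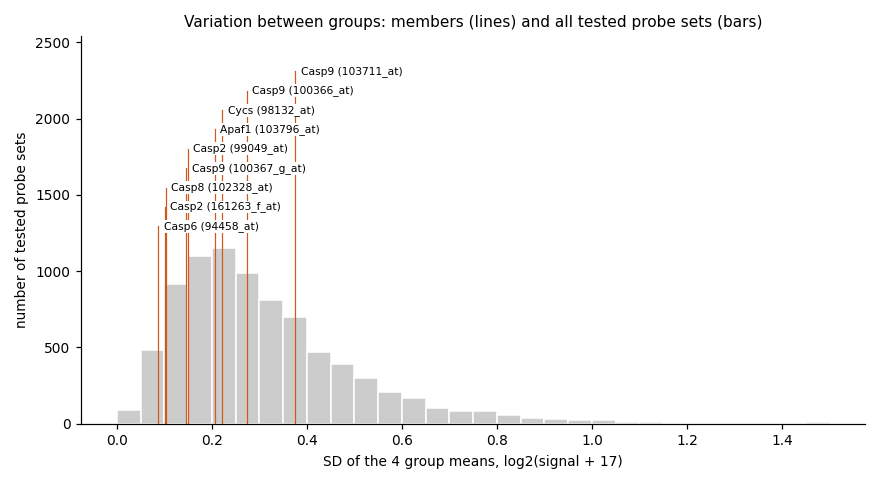
Number of tested probe sets (vertical axis) by the SD of their 4 group means on the log2(signal + 17) scale (horizontal axis; the last bar also holds larger values), with an orange line for each of the 9 tested members. The members run from 0.09 for Casp6 to 0.38 for the Casp9 probe set 103711_at, and their median of 0.15 is below the 0.27 of all 8281.

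For each member the genes with the most similar pattern were sought by Pearson's r on the log2 scale over the 8 arrays, among 6093 other genes, each by its brightest tested probe set. With so many genes and 8 arrays that share their groups and scaling, high values arise readily, and they are a description. Casp2 was closest to Prelid3b (r = 0.948) and Jagn1 (0.947), Casp6 to Mroh1 (0.952) and Pfkm (0.949), and Casp8 to Ap2b1 (0.925) and Zfp932 (0.889). Casp9, by probe set 100366_at, was closest to Kcnq1 (0.98) and Cyp4b1 (0.978), Apaf1 to Zfp62 (0.983) and Tubgcp3 (0.969), and Cycs to Psip1 (0.955) and 4933434E20Rik (0.942).

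The other genes of the pathway gave no call either. The 6 lists of other caspases, caspase inhibitors, mitochondrial proteins, the death receptor route, the inflammasome route and caspase substrates hold 61 genes, of which 45 had a probe set and 35 had one bright enough to test, with 47 tested probe sets. In each of the 4 comparisons 0 of 47 passed in either direction (limma, Benjamini-Hochberg). The shares of all tested probe sets that passed were 0.616%, 0%, 0.278% and 0.181%, in the order that follows. At these backgrounds 47 probe sets would often hold no call. At an unadjusted p under 0.05 there were 3 for Vbeta5 against the overnight control, 0 for Valpha2 against it, 5 for Vbeta5 against Valpha2 and 5 for the overnight control against the control, where 8.49%, 1.62%, 8.19% and 9% of all tested probe sets had one. The F test passed 0 of 47, where 1.03% of all tested probe sets passed. It gave 4 of 47 an unadjusted p under 0.05, where 9.72% of all tested probe sets had one.

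Among caspase substrates, Gsn, which encodes the actin-severing protein gelsolin, came closest to the threshold. Its signals were 1356.5 and 1266.7 in the control, 531.5 and 567.5 in the overnight control, 598.9 and 596 with Valpha2, and 704.4 and 649.3 with Vbeta5. The control arrays were above all others, and the overnight control differed from the control by -1.23 ± 0.21 (SE; limma adjusted p = 0.0578; F test adjusted p = 0.0512). The Gsn difference passed in 3 of 18 alternatives, with adjusted p-values from 0.0198 to 0.669 over all of them. Bid, which links caspase-8 to the mitochondrion, read 238.6 and 218.7 in the control, 160.1 and 136.1 in the overnight control, 124.2 and 136.2 with Valpha2, and 90.4 and 79.6 with Vbeta5. Its control arrays were the highest and its Vbeta5 arrays the lowest of the 8, but no comparison passed (F test adjusted p = 0.34; -0.69 ± 0.32 for Vbeta5 against the overnight control, limma adjusted p = 0.612). The median of the 16 substrate probe sets was 0.12 for Vbeta5 against the overnight control, where that of all probe sets was -0.01, and -0.145 for the overnight control against the control, where it was 0.10.

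Of the inhibitors 7 of 11 genes were tested, with 9 probe sets and a median of -0.36 for Vbeta5 against the overnight control. Birc5, which encodes survivin, a protein of dividing cells as well as a member of the inhibitor of apoptosis family, read 619 and 395.3 in the control, 158.6 and 182.4 in the overnight control, 138.4 and 187.9 with Valpha2, and 60.5 and 168.3 with Vbeta5. Its control arrays were above all others, with a difference of -1.45 ± 0.43 (SE) in the overnight control that did not pass (limma adjusted p = 0.299). Serpinb9, an inhibitor of granzyme B, averaged 191 ± 63.6 (SD, n = 2) with Vbeta5, 125.6 ± 29.3 with Valpha2 and 76.2 ± 11.9 in the overnight control. It differed by 1.13 ± 0.38 between Vbeta5 and the overnight control (limma adjusted p = 0.349).

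In the death receptor route 9 of 14 genes were tested, with 11 probe sets and a median of 0.03 for Vbeta5 against the overnight control. Fas, the receptor that recruits caspase-8, read 273.5 and 416.8 in the control, 252.3 and 563.2 in the overnight control, 438.1 and 436.2 with Valpha2, and 187.8 and 224.2 with Vbeta5. The Vbeta5 arrays were the 2 lowest of the 8, with a difference of -1.03 ± 0.37 (SE) from Valpha2 that did not pass (limma adjusted p = 0.424). Tnfrsf1b, a receptor for tumour necrosis factor, read 327.6 and 265.2 with Vbeta5 against 84.3 to 202.4 on the other 6 arrays. It differed by 0.99 ± 0.39 from Valpha2 and by 1.07 ± 0.39 from the overnight control (limma adjusted p = 0.503 and 0.434).

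**Figure D4:**
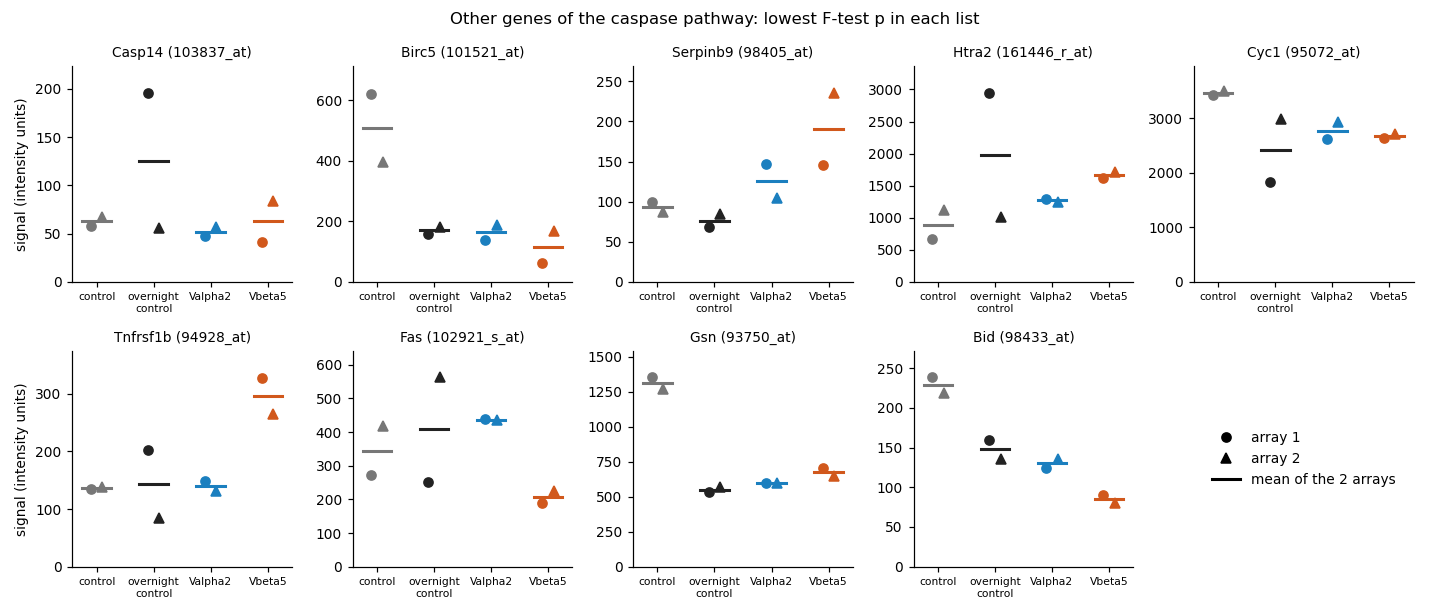
Deposited signal (vertical axis, linear intensity units, from 0) in the 4 groups for the genes with the lowest F-test p in each list of other pathway genes; circles are array 1, triangles array 2 and bars the mean of the 2. Gsn and Birc5 are highest on the control arrays, and Tnfrsf1b is highest and Fas and Bid lowest on the Vbeta5 arrays, with no comparison past the threshold.

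Of the mitochondrial proteins 7 of 9 genes were tested, with 10 probe sets and a median of 0.09 for Vbeta5 against the overnight control. Cyc1, a subunit of the respiratory complex that passes electrons to cytochrome c, averaged 3472 ± 52 (SD, n = 2) in the control and 2408 ± 810 in the overnight control by probe set 95072_at, a difference of -0.57 ± 0.25 (SE; limma adjusted p = 0.531), while its other probe set, 162469_r_at, differed by 0.34. Without the 3 arrays of raised 3' to 5' ratio they differed by -0.219 and -0.224. Htra2, a mitochondrial protease that blocks inhibitors of apoptosis, likewise had probe sets of opposite sign in that comparison, 0.99 for 161446_r_at and -0.73 for 104102_at, and 0.228 and -0.553 without those arrays. Of the other caspases Casp14, an enzyme of skin, was tested, and its one high signal, 195.4, was on overnight control array 1 against 41.6 to 84.2 elsewhere. That array also had the highest median signal over all probe sets. Casp4 and Casp12 were too dim to test, as were Il1a, Il1b and Il18 of the inflammasome route, none of whose genes was tested.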

How the data were processed

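Signals of mouse double positive thymocyte RNA on 8 arrays were analysed. The authors deposited 1 table of intensity values, described as normalized per the labels; the sources used here name no software or background correction, and no detection calls were used. The intensity is linear, and its trimmed mean was 250.14 to 250.16 on every array. The median ran from 73.65 on control array 1 to 110.25 on overnight control array 1. Array groups came from titles. After 66 control probe sets were removed, log2(signal + 17) was taken of the deposited intensity, the dimmest 33.3% of probe sets by mean were dropped, and 8281 were fitted with limma 3.58.1 (R 4.3.3): 4 group means, eBayes with trend, Benjamini-Hochberg per comparison, two-sided. With 2 arrays a group the smallest p of an exact two-sided permutation test is 0.333, so no such test was used. Symbols are those of the platform annotation, brought up to date by gene ID from RefSeq (GRCm38.p6), whose coordinates were not used; of 12422 probe sets 10833 had 1 symbol, 396 several and 1193 none. The fit was tested on simulated data. Members, lists and tests were chosen with earlier results of these data known. All members are named; of other pathway genes, those that passed and the 2 lowest F-test p-values per list are named, plus, per member, the 2 genes of most similar pattern. 4 macrophage markers and some genes too dim to test are named beside them, chosen after their values were seen. All double positive markers with a probe set are named. Alternatives covered scaling, offset, filter, variance trend, a replicate block, and arrays left out.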

Additional observations from a re-analysis of the deposited data

How the results depend on the processing

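No tested member passed in any of the 4 comparisons or in the F test under any alternative. Over 668 values of the 9 probe sets, each comparison and up to 19 settings, the lowest limma adjusted p was 0.148, and 613 kept their sign. It belonged to the Casp9 probe set 103711_at in the overnight control against the control with its array 2 left out. Of the 13 differences of tested members printed with the comparisons, 5 turned sign in at least 1 alternative, all without passing. Pairs outside the 13 turned as well, such as Casp9 by 100366_at and by 100367_g_at in Vbeta5 against the overnight control. Those went from -0.208 and -0.106 to 0.309 and 0.515 without the 3 arrays of raised 3' to 5' ratio. The 5 of the 13 follow. Casp2 by 161263_f_at, overnight control against control, was -0.0971 at a common median, -0.0617 as the mean of the gene's probe sets, and -0.0994 to 0.358 with single arrays left out. Casp2 by 99049_at, Vbeta5 against the overnight control, was 0.00595 as the gene's mean and -0.26 to 0.0901 with single arrays left out. Casp8 in that comparison was 0.186 without the 3 arrays of raised 3' to 5' ratio and -0.178 to 0.0842 with single arrays left out, and Apaf1 was -0.625 to 0.0924. Casp9 by 100367_g_at, overnight control against control, was -0.00319 at a common median, -0.221 without those 3 arrays, and -0.221 to 0.668 with single arrays left out. Shifting arrays to a common median moved the median of all tested probe sets by -0.226 in that comparison; the Casp9 probe set 103711_at then differed by 0.587 against a median of -0.127. Of 11 printed differences of other pathway genes 2 turned sign. Cyc1 by 162469_r_at, overnight control against control, was -0.224 without overnight control array 1 and without the 3 arrays, -0.112 as the gene's mean, and -0.224 to 0.907 with single arrays left out; Htra2 by 104102_at was 0.128 as the gene's mean. In that comparison Gsn passed without the dimmest 50% of probe sets (adjusted p = 0.0489), with the replicate block (0.0198) and without overnight control array 2 (0.0435), and Htra2 by 161446_r_at passed without that array (1.74, adjusted p = 0.0413). The cause of these changes was not tested.

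The background counts, in the order Vbeta5 against the overnight control, Valpha2 against it, Vbeta5 against Valpha2, overnight control against control, and F test, were 51, 0, 23, 15 and 85. Without a variance trend all 5 were 0. At a common median they were 28, 0, 0, 10 and 51, and quantile normalization gave 10 for the overnight control against the control. Fits of only the arrays compared gave 28, 0, 0 and 31. Without the 3 arrays of raised ratio they were 144, 0, 41, 69 and 249, from 5 arrays with 1 residual degree of freedom: the spread came from the control pair, and the lone array of each other group was assumed to vary like it. With the array number as a replicate block they were 124, 0, 90, 99 and 233, and still 0 members; same-numbered arrays deviated together across groups with r from 0.104 to 0.345, but with 2 numbers this is a hint, not a stated pairing. With single arrays left out the ranges were 0 to 54, 0 to 1, 0 to 31, 0 to 119 and 0 to 157. In Vbeta5 against the overnight control the count was 0 without Vbeta5 array 2, 26 without Vbeta5 array 1, 18 and 31 without overnight control arrays 1 and 2, and 34 without either control array. In Vbeta5 against Valpha2 it was 0 without either control array, Valpha2 array 1 or Vbeta5 array 2, and the 1 call for Valpha2 against the overnight control came without Valpha2 array 2. In the overnight control against the control it was 0 without either control array or the overnight array 1, and 119 without the overnight array 2. The F test gave 0 without either control array, 157 without overnight control array 2, 37 without Valpha2 array 1, and 23 and 9 without Vbeta5 arrays 1 and 2. With 2 arrays a group and no detection calls, the number of arrays and the low signals of Casp1 and of the Casp9 probe set 100368_at limit what can be seen.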
